A study of Homo sapiens with 8 samples.

Results

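Wide new Nutlin-3 sites are p53 peaks of the Nutlin-3 list that spanned at least 200 bp and lay more than 1000 bp from every peak listed without treatment, with DMSO or with doxorubicin. Peaks inside dense runs, that is 5 or more successive Nutlin-3 peaks with gaps of at most 20 kb, were left out. The rule found 801 sites among 18159 Nutlin-3 peaks (4.41%) and 24535 peaks in all lists. The sites were chosen by their width and by their distance to peaks of the other lists, so both are described below with no test. Read depths are unknown, so a site absent from a shorter list cannot be told apart from a site not detected there.

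The study mapped p53 by ChIP-seq, in which DNA that comes down with an antibody to p53 is sequenced, in U2OS cells, a line from a human osteosarcoma, whose endogenous p53 is wild-type according to the labels. All ChIP libraries used the p53 antibody DO-1. Cells were left untreated, given 0.1% DMSO, 0.6 µg/ml doxorubicin (the list called DXR in the labels) or 10 µM Nutlin-3, and 24 h is given for each. Each condition had 1 ChIP library and 1 input, in 1 cell line. The labels name DMSO as the control of Nutlin-3 and no treatment as the control of doxorubicin. With 1 library per condition there was no replicate, and no difference between conditions was tested.

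The transcription factor p53 binds DNA as a tetramer, at response elements built from a repeated short motif, and turns on genes of cell cycle arrest, DNA repair and cell death. In unstressed cells the ubiquitin ligase MDM2 binds p53 and marks it for degradation. Nutlin-3 occupies the p53-binding pocket of MDM2, so that p53 accumulates without DNA damage. Doxorubicin is a topoisomerase II poison that activates p53 through DNA breaks, and DMSO is the solvent.

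The lists held 496 peaks without treatment, 2793 with DMSO, 3087 with doxorubicin and 18159 with Nutlin-3. Their median width was 60 bp in each. Peaks of 200 bp or more made up 27.4% of the untreated list, 7.34% of the DMSO list, 11.7% of the doxorubicin list and 7.57% of the Nutlin-3 list. No score, height or read count comes with a peak, so the depth behind a site is unknown. All positions are in hg18 as deposited, on a grid of 20 bp. A genome or gene annotation of hg18 was not used here, so the sites carry no sequence, motif or gene name.

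Most wide Nutlin-3 peaks were new sites, at a share below that of narrow ones. Of 1374 Nutlin-3 peaks of 200 bp or more, 915 (66.6%) lay more than 1000 bp from every other list, against 75.5% of the 16785 narrower peaks and 74.8% of all Nutlin-3 peaks. Dense runs held 114 of the 915 (12.5%), against 8.28% of the new narrow peaks. This left 801 sites, 58.3% of the wide peaks. The matching share was 69.2% of narrow peaks, the 11620 narrow new sites used for comparison, and 68.4% of all Nutlin-3 peaks. These shares come from the measures that define the set, and nothing is read from them.

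The 459 wide peaks that were not new lay within 1000 bp of a peak of another list. In 320 of them the peak overlapped or adjoined a peak of another list, and in 139 it stood apart by up to 1000 bp. A DMSO peak was within 1000 bp of 327 wide Nutlin-3 peaks, a doxorubicin peak of 343 and an untreated peak of 25. The shares of wide Nutlin-3 peaks farther than that from each list were 76.2% for DMSO, 75% for doxorubicin and 98.2% for no treatment, beside 81.1%, 80.9% and 99.2% over all Nutlin-3 peaks. The untreated list was thus the one that removed the fewest sites, and with 496 peaks it was also the shortest list.

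The sites were mostly a little above the width limit. Their median width was 260 bp, with quartiles of 200 and 300 bp and a maximum of 640 bp. Wide peaks near another list had the same median, 260 bp, an upper quartile of 340 bp and a maximum of 980 bp. The 801 sites covered 214 kb, or 13.3% of the 1610 kb under all Nutlin-3 peaks. At the limit itself, 214 sites were 200 bp wide, and 344 further new peaks outside dense runs were 180 bp wide and thus just missed it. The distance limit cut through few peaks, with 4 sites between 1000 and 1200 bp from another list and 3 wide peaks outside dense runs between 800 and 1000 bp. At the limit on runs, 53 sites lay in stretches of 4 Nutlin-3 peaks and 29 wide new peaks fell out in runs of 5.

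**Figure D1:**
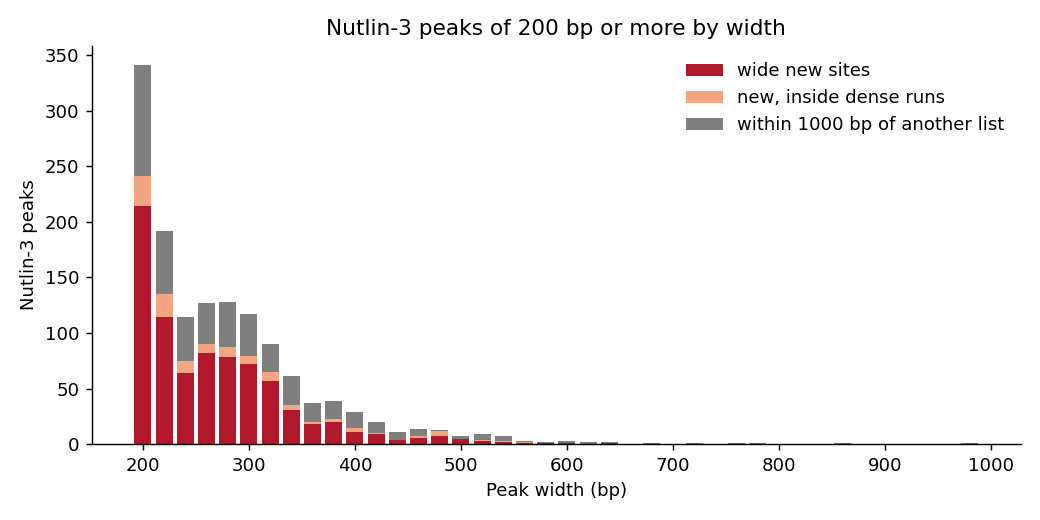
Number of Nutlin-3 peaks (vertical axis) at each width of 200 bp or more (horizontal axis, bp), stacked by class: wide new sites, new peaks inside dense runs and peaks within 1000 bp of another list. Wide new sites fall from 214 at 200 bp to 64 at 240 bp, stand at 82 at 260 bp and then decline.

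The fall with width was not even. Counts of the sites went from 214 at 200 bp and 114 at 220 bp to 64 at 240 bp, then stood at 82 at 260 bp, 78 at 280 bp and 72 at 300 bp before falling to 31 at 340 bp. Wide peaks near another list numbered 57 at 220 bp, 39 at 240 bp, 37 at 260 bp, 41 at 280 bp, 38 at 300 bp and 26 at 340 bp, a level stretch in place of the dip. DMSO peaks numbered 17 at 240 bp, 19 at 260 bp and 20 at 280 bp, and doxorubicin peaks 40, 23 and 2 at these widths. The counts of the sites thus paused near 280 bp, as those of wide peaks near another list did, both within the Nutlin-3 list. DMSO counts, though small, also fell from 27 at 220 bp to 17 at 240 bp and then did not fall up to 280 bp. The pause was thus not particular to the Nutlin-3 list. Doxorubicin counts fell from 240 to 280 bp instead.

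The widest sites, 14 of 500 bp or more, stood on 11 chromosomes, and none was within 44 kb of a peak of another list. Their nearest peak of any other list was 44.2 kb to 1.03 Mb away, with a median of 182 kb. A further Nutlin-3 peak lay within 1000 bp of 5 of them, and 6 had no other Nutlin-3 peak within 20 kb. Of the 14, 9 were wider than 500 bp and 5 measured exactly that, so the tenth place is a tie, given here to the site that comes first by chromosome. Chromosome 8 held 2 of the 14, which are only counted.

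The widest site lay at chr4:124972731-124973371 (640 bp). Its nearest DMSO peak was 1033 kb away and its nearest doxorubicin peak 1034 kb away, and no other site of the 14 was as far from every other list. A narrow Nutlin-3 peak of 80 bp stood 840 bp from it, at positions 124974211-124974291. Next came a site at chr18:3973331-3973931 (600 bp), alone within 20 kb, with a DMSO peak at 90.8 kb and an untreated peak at 336 kb. The third widest, at chr7:2639631-2640211 (580 bp), had a companion Nutlin-3 peak of 60 bp at 280 bp, and its nearest DMSO and doxorubicin peaks, at 162 kb, adjoined each other. These 3 sites thus differ in setting, from remote with a companion to alone.

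The fourth was on the X chromosome (chrX:87877611-87878171, 560 bp), 208 kb from the next Nutlin-3 peak and 689.6 kb from the nearest DMSO peak. A site at chr11:13194231-13194771 (540 bp) was the one of the 14 nearest to another list, with a doxorubicin peak of 40 bp at 44.2 kb, while its nearest DMSO peak was 838 kb away. Sites of 520 bp lay at chr15:63811931-63812451, chr17:5428791-5429311 and chr22:28720051-28720571. The first of these had a DMSO and a doxorubicin peak that began at one position, 80.9 kb away. Of the 5 tied sites, the first lay at chr1:219201991-219202491 (500 bp), with a 40 bp Nutlin-3 peak 4.48 kb from it.

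Over 23 chromosomes with a site, the widest ranged from 280 bp to 640 bp with a median of 480 bp. Those of 480 bp lay at chr6:45726411-45726891 and at chr19:46423511-46423991. The chromosome 6 site was 3.08 kb from a second wide new site of 260 bp, and the chromosome 19 site was 7.02 kb from a peak that DMSO and doxorubicin listed with identical bounds. Chromosome 2 had one of 500 bp at positions 165858591-165859091, alone for 302 kb within the Nutlin-3 list. Sites of 460 bp lay at chr3:101698191-101698651 and at chr14:55242251-55242711, the latter 6.12 kb from an untreated peak. In these 23 sites, 2 had a peak of another list within 10 kb and 2 were over 1 Mb from any.

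The remaining chromosomes had maxima of 280 to 440 bp. Chromosome 5 had its widest site at positions 68230551-68230991 (440 bp), 1.69 Mb from any other list. Chromosome 10 had one at positions 77579951-77580371 and chromosome 20 one at positions 22704431-22704851, both of 420 bp. Sites of 380 bp lay at chr9:106675051-106675431, chr12:6315731-6316111 and chr16:64249651-64250031. The lowest maxima were at chr21:43696331-43696651 (320 bp) and at chr13:109798251-109798531 (280 bp).

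The sites were spread over all autosomes and the X chromosome, in numbers that mostly followed the new sites as a whole. Chromosome 2 held 79, chromosome 8 held 71 and chromosome 1 held 61, while chromosome 13 held 6 and the X chromosome 10. Chromosome Y held 0 of them and 7 Nutlin-3 peaks in all. Over all chromosomes, the wide sites made up 6.45% of the 12421 new Nutlin-3 sites outside dense runs. For 21 of 23 chromosomes the exact 95% binomial interval of this share (Clopper-Pearson, counting error only, peaks taken as independent) included the overall value.

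**Figure D2:**
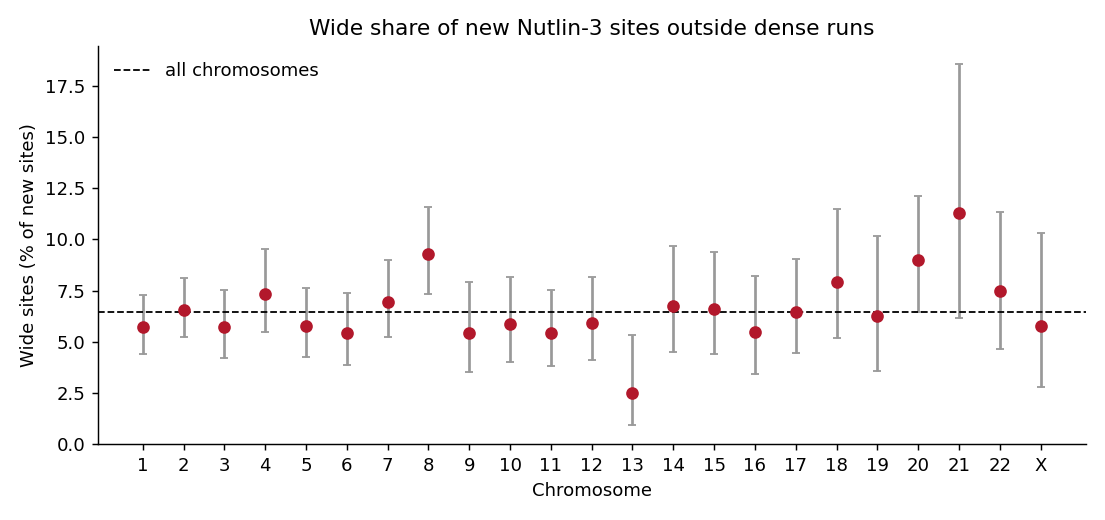
Wide new sites as a percentage of all new Nutlin-3 sites outside dense runs (vertical axis) on each chromosome (horizontal axis). Points are the shares, bars exact 95% binomial intervals and the dashed line the share over all chromosomes, 6.45%. The interval of chromosome 8 lies above the line and that of chromosome 13 below it.

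Chromosomes 8 and 13 were the exceptions. On chromosome 8, 71 of 763 new sites were wide (9.31%, 95% interval 7.34 to 11.6), and on chromosome 13, 6 of 242 (2.48%, 0.915 to 5.32). Chromosome 21 had the highest share, 13 of 115 (11.3%), with an interval of 6.16 to 18.6 that includes the overall value, and chromosome 20 had 38 of 423 (8.98%, 6.44 to 12.1). The intervals were not adjusted for 23 chromosomes, and these were picked after the values were seen. Chromosome 8 also carried 71 of the 496 untreated peaks, more than any other chromosome, and chromosome 13 carried 0. Other chromosomes did not line up in this way. Next in untreated peaks came chromosome 2 with 61, chromosome 7 with 43 and chromosome 16 with 41. Their wide shares were 6.57%, 6.94% and 5.45%, and chromosome 21, with the highest share, carried 4 untreated peaks. Within chromosome 8 wide sites and untreated peaks were uneven, since 1 window of 5 Mb held 13 of the wide sites and 31 of the untreated peaks. The part of untreated peaks in these shares was not tested.

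All 6 sites of chromosome 13 were 200 to 280 bp wide. The chromosome holds 1.91% of Nutlin-3 peaks, 2.03% of narrow new sites and 0.749% of wide new ones. Chromosome 8 holds 6.10% of Nutlin-3 peaks, 5.96% of narrow new sites and 8.86% of wide new ones. Narrow new sites thus fell on both chromosomes in about the proportion of all Nutlin-3 peaks, and wide new ones did not. Narrow new sites make up 64.0% of that list, so their part of this is largely built in. The chromosomes were picked by their wide share. Of the 459 wide peaks near another list, 28 lay on chromosome 8 and 7 on chromosome 13.

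Most wide new sites were more than 100 kb from the next one. The spacing that their number alone would give was not computed, and the rule removed 114 further wide new peaks in dense runs. The median distance from a site to the next wide new site was 743 kb, with quartiles of 255 kb and 1941 kb. Only 31 sites (3.87%) had another within 20 kb and 117 (14.6%) within 100 kb. On chromosome 21 the median was 148 kb and on chromosome 8 it was 254.98 kb, against 2536 kb on chromosome 13 and 5842 kb on the X chromosome.

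The closest pairs gave stretches where wide new sites came side by side. On chromosome 4, a site at positions 68723131-68723431 (300 bp) and one at positions 68723811-68724091 (280 bp) were 380 bp apart, with no other Nutlin-3 peak in their stretch and 1.24 Mb to any peak of another list. A second pair on chromosome 4, at positions 145767871-145768071 and at positions 145768491-145768691, both 200 bp wide, had a gap of 420 bp and a doxorubicin peak 2.58 kb away. The third pair, at chr14:61006991-61007311 (320 bp) and at positions 61008711-61008911 (200 bp), had a gap of 1400 bp and a doxorubicin peak at 81.4 kb. Only the first 2 pairs, 4 sites in all, were within 1000 bp of each other.

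At the other end were sites with no wide neighbour over many megabases. A site on the X chromosome (chrX:153478071-153478291, 220 bp) was 65.6 Mb from the next one, although a 40 bp Nutlin-3 peak lay 3.76 kb away. A site at chr13:80342351-80342591 (240 bp) was 29.5 Mb from the next, and one at chr9:4215371-4215691 (320 bp) was 24.1 Mb away. Isolation from wide sites did not mean isolation from the Nutlin-3 list, since each of these 3 had a 40 or 60 bp Nutlin-3 peak within 11 kb.

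Some windows held several sites. Of the windows of 1 Mb that held any, 486 held 1 site, 97 held 2, 25 held 3, 9 held 4 and 2 held 5. The fullest were on chromosome 5 from 167 to 168 Mb and on chromosome 6 from 45 to 46 Mb. The first had 19 Nutlin-3 peaks, 2 DMSO peaks, 0 doxorubicin peaks and 1 untreated peak, and the second had 17, 0, 1 and 0 in the same order. In both windows every Nutlin-3 peak of 200 bp or more was a wide new site. The fullest window of 5 Mb, with 13 sites, was on chromosome 8, where sites are only counted, and another window there held 10. In windows of 5 Mb outside chromosome 8, the most were 10 sites, on chromosome 18 from 10 to 15 Mb and on chromosome 20 from 45 to 50 Mb. The former had 62 Nutlin-3 peaks, 11 of them of 200 bp or more, with 6 DMSO, 5 doxorubicin and 8 untreated peaks. The latter had 120 Nutlin-3 peaks, 21 of them of 200 bp or more, with 10 DMSO, 18 doxorubicin and 8 untreated peaks.

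Measured against all Nutlin-3 peaks, wide new sites had closer neighbours at the median than narrow new sites. In sites of 300 to 380 bp, however, the share with a neighbour within 20 kb was close to that of narrow ones. The next Nutlin-3 peak was at a median of 21.6 kb (95% interval of the median 17.7 to 26.2), against 30.6 kb (29.1 to 31.9) for narrow new sites. Another Nutlin-3 peak lay within 20 kb of 391 of 801 wide sites (48.8%, 45.3 to 52.3) and of 4842 of 11620 narrow ones (41.7%, 40.8 to 42.6). New peaks of 180 bp, just below the limit, gave a median of 23.9 kb and a share of 46.2% (40.9 to 51.6). Sites of 300 to 380 bp gave 26.4 kb and 42.4% (35.4 to 49.6), and the other classes of wide sites 15.8 to 21.8 kb and 49.7% to 54.9%. For wide peaks near another list the median was 1.12 kb and the share 72.8%. Gaps of up to 20 kb entered the rule through the dense runs, which held 12.5% of wide and 8.28% of narrow new peaks. Peaks of 1 library are not replicates, so these values are a description and no test was made. By the rule on dense runs no site could have more than 3 others in its stretch: 410 sites stood alone, 212 in stretches of 2, 126 in stretches of 3 and 53 in stretches of 4. Of the narrow new sites 58.3% stood alone, against 51.2% of the wide ones.

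**Figure D3:**
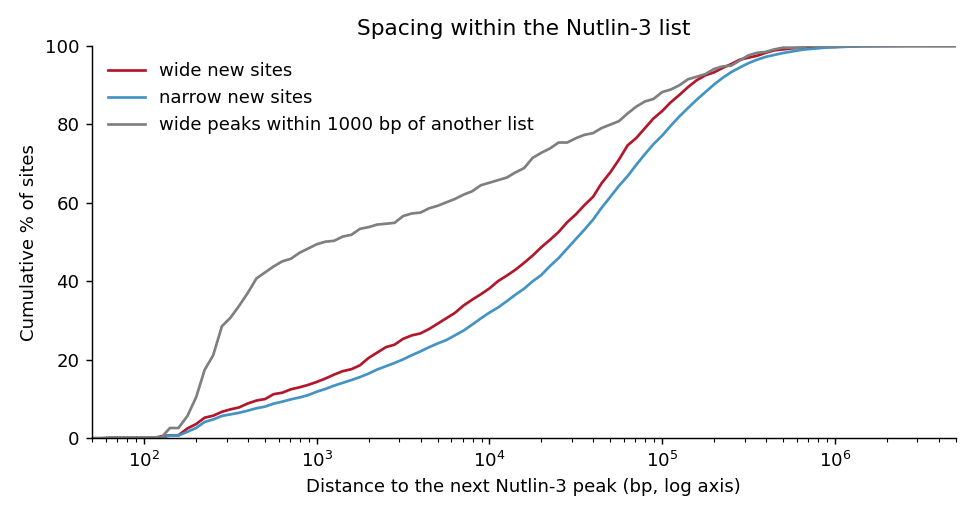
Cumulative percentage of sites (vertical axis) whose next Nutlin-3 peak lies within a given distance (horizontal axis, bp, log scale), for wide new sites, narrow new sites and wide peaks within 1000 bp of another list. At 20 kb the curves stand at 48.8%, 41.7% and 72.8%.

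Close companions of wide new sites were mostly narrow peaks, as most Nutlin-3 peaks are. A Nutlin-3 peak lay within 1000 bp of 115 sites (14.4%, 12.0 to 17.0), against 11.9% (11.3 to 12.5) of narrow new sites. Of these companions 109 were narrow new sites, 4 were wide new sites and 2 lay near another list. Their median width was 60 bp and the widest was 300 bp. Companions of 40 or 60 bp numbered 72 of 115 (62.6%), close to the 60.9% that such peaks make up in the Nutlin-3 list. The median gap was 300 bp, the same as the 300 bp for narrow new sites, and no gap was under 120 bp. A companion beside a wide site was thus of the size and at the spacing that narrow sites have too.

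Beyond the excluded 1000 bp, distances to DMSO peaks were of similar size for wide and narrow new sites. The nearest DMSO peak was at a median of 294 kb (259 to 329) from wide sites and 303 kb (292 to 314) from narrow ones. The values for doxorubicin were 279.8 kb (243 to 318) and 315 kb (305 to 324). Within 100 kb, 24.3% (21.4 to 27.5) of wide and 23.1% (22.3 to 23.9) of narrow sites had a DMSO peak, and 25.2% (22.2 to 28.4) and 21.1% (20.4 to 21.9) had a doxorubicin peak. Without chromosome 8 the doxorubicin shares within 100 kb were 24.5% (21.4 to 27.8) and 21.1% (20.4 to 21.9). Within 1 Mb they were 88.1% (85.7 to 90.3) and 84.2% (83.6 to 84.9) over all chromosomes.

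Untreated peaks were nearer to wide Nutlin-3 peaks, new or not, than to narrow new sites. Among sites on chromosomes with an untreated peak, the median distance was 4155 kb (3463 to 4876) for wide and 5692 kb (5498 to 5934) for narrow sites. An untreated peak lay within 1 Mb of 214 wide sites (26.7%, 23.7 to 29.9) and of 19.7% of narrow ones (19.0 to 20.4). The value was 26.6% (22.6 to 30.9) for wide peaks near another list, 25 of which had an untreated peak within 1000 bp. For wide new peaks inside dense runs it was 53.5% (43.9 to 62.9). The share of the sites was thus close to that of the former and below that of the latter. Within 100 kb the shares were 56 of 801 (6.99%, 5.32 to 8.98) and 439 of 11620 (3.78%, 3.44 to 4.14). Chromosome 8 held many of both. Without it the shares within 1 Mb were 23.01% (20.01 to 26.2) and 17.9% (17.2 to 18.7), and within 100 kb 5.21% (3.71 to 7.08) and 3.19% (2.87 to 3.54). Distances to untreated peaks entered the rule, and neighbouring sites can share 1 untreated peak, so these values are a description with no test, and the intervals cover counting error only.

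**Figure D4:**
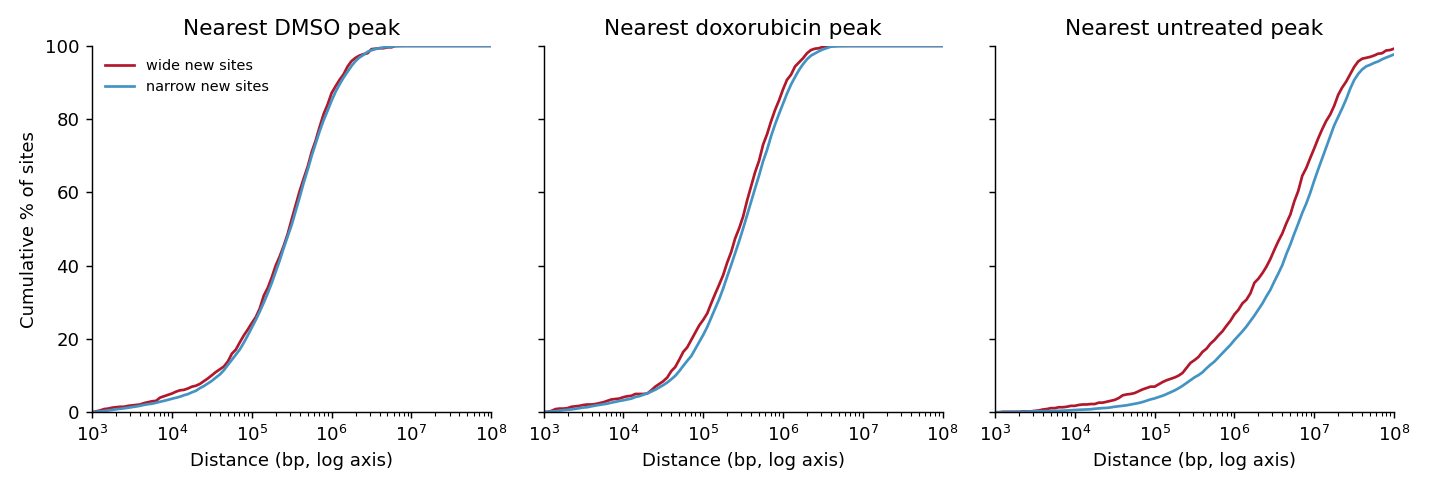
Cumulative percentage of wide and of narrow new Nutlin-3 sites (vertical axis) whose nearest DMSO, doxorubicin or untreated peak (panels from left to right) lies within a given distance (horizontal axis, bp, log scale). The curves nearly coincide for DMSO and stand apart most for untreated peaks, with 26.7% and 19.7% within 1 Mb.

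No single list was the nearest one for most wide new sites. A DMSO peak alone was nearest for 344 of 801 sites (42.9%, 39.5 to 46.5), a doxorubicin peak alone for 318 (39.7%, 36.3 to 43.2) and an untreated peak alone for 74 (9.24%, 7.32 to 11.5), and 65 sites (8.11%) were equally far from peaks of different lists. Among narrow new sites the values were 45.4%, 39.9%, 6.22% and 8.49% in this order. The DMSO, doxorubicin and untreated lists hold 2793, 3087 and 496 peaks, and the length of a list bears on how often it is nearest. For 288 wide sites (36.0%, 32.6 to 39.4) the nearest DMSO peak and the nearest doxorubicin peak lay within 1000 bp of each other, and for narrow ones the share was 39.8% (38.9 to 40.7). Taking all lists, 37 sites (4.62%) were within 5 kb of another list and 302 (37.7%) within 100 kb.

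The sites nearest to another list were a 220 bp site at chr21:27865911-27866131, with a DMSO peak at 1020 bp, one on chromosome 8, and a 380 bp site at chr3:178790531-178790911. The last was 1140 bp from a DMSO peak and 1160 bp from a doxorubicin peak, with a 40 bp Nutlin-3 peak in between at 1100 bp. The chromosome 21 site had a second wide new site of 240 bp at 8.34 kb. The most remote were the site at chr13:80342351-80342591, at 3.07 Mb from any other list, a site of 320 bp at chr4:11116111-11116431, at 2.9996 Mb, and one on chromosome 8. Remote from other lists, the first still had a 60 bp Nutlin-3 peak at 1080 bp and the second a 60 bp one at 8.9 kb. The sites farthest from any Nutlin-3 peak lay on the X chromosome (chrX:82035091-82035331, 240 bp, 1.35 Mb), at chr3:119464411-119464791 (380 bp, 1.03 Mb) and at chr5:122138831-122139091 (260 bp, 648 kb).

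Within 100 kb, the share of sites with a peak of another list rose from class to class of width, with broad intervals. Within 10 kb it was also highest among the widest but did not rise steadily. A peak of another list lay within 100 kb of 35.1% (29.9 to 40.5) of the 328 sites of 200 to 220 bp, 35.9% (24.3 to 48.9) of the 64 of 240 bp, 38.1% (30.6 to 46.1) of the 160 of 260 to 280 bp, 39.4% (32.5 to 46.6) of the 198 of 300 to 380 bp and 49.0% (34.8 to 63.4) of the 51 of 400 bp or more. New peaks of 180 bp, just below the limit, gave 34.9% (29.9 to 40.2). The intervals of all classes overlapped. Within 10 kb the shares were 7.93%, 6.25%, 8.75%, 7.07% and 11.8% from the narrowest class of sites to the widest. The share with a Nutlin-3 peak within 20 kb did not rise steadily either, with 49.7%, 50%, 52.5%, 42.4% and 54.9% in the same classes.

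The sites were not gathered beside the largest gap between successive peaks, pooled over all lists, on each chromosome. Within 2 Mb of that gap lay 14 of 801 wide new sites (1.75%, 0.959 to 2.92), 1.98% (1.73 to 2.25) of narrow new sites and 1.96% (0.900 to 3.69) of wide peaks near another list.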

How the data were processed

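The 4 peak lists were used, 1 for each ChIP library; the input libraries were not analysed here. As deposited, a list has 3 columns that give the bounds of each peak and no score. The submitters' processing notes name hg18, CASAVA and Bowtie 0.12.2; the peak caller, its threshold and how the inputs served as controls are not stated there. All 24535 widths were multiples of 20 bp. Width is end minus start, and distance is the gap between the end of a peak and the start of the next, 0 where they overlap or adjoin. Whether starts count from 0 or 1 is not stated, which leaves 1 bp open.

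Sites, distances, runs and exact 95% intervals were computed with Python 3.11.15, numpy 2.4.6, pandas 2.3.3 and scipy 1.17.1. Intervals of medians come from binomial order statistics. The rule was tested on simulated peaks. The sites named are the 10 widest, the widest of each chromosome, the 3 closest pairs, the 3 most isolated and the 3 nearest to and farthest from another list; sites of chromosome 8 are only counted. The members and lists were chosen with earlier results of these data known. Planned motif and gene steps were not run, since no genome of hg18 was used here.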

Additional observations from a re-analysis of the deposited data

How the results depend on the processing

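No paired analysis was possible because each condition had 1 library. Stricter or looser limits change which peaks enter by construction, and for the other settings the cause was not tested. Of 162 alternatives over 14 settings, 117 stayed within the interval of the main value (for the count of sites, within 1.5 times) and 45 moved, 24 up and 21 down. Chromosome shares, the share near untreated peaks, the ratios of wide to narrow new sites and the setting without chromosome 8 were added after the data were seen. The number of sites, 801, became 1689 from 160 bp, 249 from 300 bp and 1294 with Nutlin-3 peaks up to 500 bp apart merged. Their share of wide peaks, 58.3%, became 64.0% from 160 bp, 52.8% from 300 bp, 62.6% with more than 200 bp and 55.6% with more than 5000 bp to other lists, 62.2% and 46.5% with run gaps up to 10 and 50 kb, 45.3% with runs of 3 or more peaks, 66.6% with runs kept, 66.1% with DMSO alone as the filter, 65.2% without the doxorubicin list and 49.5% with merging. The median distance to the next Nutlin-3 peak, 21.6 kb, became 33.5 kb with run gaps up to 50 kb, 38.2 kb with runs of 3 or more peaks, 14.4 kb with runs kept and 26.3 kb with merging, and the share with one within 20 kb, 48.8%, became 41.3%, 34.1%, 55.2% and 44.4% in this order and 44.98% from 300 bp. The median distance to the next wide new site, 743 kb, became 362 kb from 160 bp, 2362 kb from 300 bp, 661 kb and 1157 kb with run gaps up to 10 and 50 kb, 1181 kb with runs of 3 or more peaks, 562 kb with runs kept and 419.7 kb with merging. The share within 100 kb of another list, 37.7%, became 41.4% from 300 bp, 41.98% with more than 200 bp, 30.5% with run gaps up to 50 kb, 33.3% with runs of 3 or more peaks, 43.3% with runs kept, 45.04% with DMSO alone and 44.3% without the doxorubicin list. The share within 1 Mb of an untreated peak, 26.7%, became 31.3% from 300 bp, 21.8% with run gaps up to 50 kb, 30.1% with runs kept and 23.01% without chromosome 8. The wide share on chromosome 8, 1.44 times that of all chromosomes, became 1.96 times from 300 bp, and that on chromosome 13, 0.384 times, became 0 from 300 bp. Over the other alternatives the former stayed above and the latter below that of all chromosomes. The share with a Nutlin-3 peak within 20 kb was 1.17 times as high in wide as in narrow new sites, 1.07 to 1.19 times over 14 settings, lowest from 300 bp (1.07). The share within 1 Mb of an untreated peak was 1.36 times as high, 1.26 to 1.57 times over 14 settings, highest from 300 bp (1.57). Library depth is unknown and limits all comparisons between lists.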
